A study of Rattus norvegicus with 12 samples.

Results

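The pyruvate dehydrogenase complex sits in the mitochondrial matrix and turns pyruvate into acetyl-CoA, the step that commits carbon from glucose to the citric acid cycle or, in fat cells, to fatty acid synthesis. It is built from pyruvate dehydrogenase (E1), dihydrolipoamide acetyltransferase (E2) and dihydrolipoamide dehydrogenase (E3). Pyruvate dehydrogenase kinases phosphorylate E1 and switch the complex off, and pyruvate dehydrogenase phosphatases remove the phosphate and switch it on. In many tissues the kinase Pdk4 is known to rise in starvation, which spares glucose, and in rat heart and kidney the phosphatase subunit Pdp2 is known to fall.

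The gene list held 10 members, namely the kinases Pdk1, Pdk2, Pdk3 and Pdk4, the phosphatase catalytic subunits Pdp1 and Pdp2, and the subunits Pdha1, Pdhb, Dlat and Dld. Members were the probes that the platform's probe-to-gene table names with one of these symbols. This gave 1 probe for each of 9 genes, or 9 of the 22523 probes on the chip, and all 9 were detected on all 12 arrays. No probe was named Pdha1, so this E1 subunit was not analysed here.

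The tissue was epididymal fat, a pad that lies against the epididymis, from male Sprague-Dawley rats aged 40 days. Per the labels, 6 rats had their food removed for 6 h and 6 were fed ad lib, and each rat gave 1 array of the same RatRef-12 chip. The sources used here differ on when food was taken away, from within the dark period, when rats mainly feed, to the morning, and on the length of time without it. The pad was taken whole, so fewer cells of a type and less RNA per cell cannot be told apart in any value below.

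The promoters of 3 kinases are shown here because their responses, described below, differed in size. The difference between groups was large for Pdk4, smaller for Pdk2 and almost absent for Pdk1. Each is the RefSeq sequence on GRCr8, from 250 bases before the transcription start to 50 after it, written 5′ to 3′ on the gene's strand. Capitals mark exact matches, on either strand, to 6 motifs: the FOXO core (GTAAACA), the nuclear receptor half-site (AGGTCA), the CCAAT box, the GC box (GGGCGG), the TATA box (TATAAA) and the E-box (CACGTG).
Pdk4, chr4:34568280-34568579, minus strand: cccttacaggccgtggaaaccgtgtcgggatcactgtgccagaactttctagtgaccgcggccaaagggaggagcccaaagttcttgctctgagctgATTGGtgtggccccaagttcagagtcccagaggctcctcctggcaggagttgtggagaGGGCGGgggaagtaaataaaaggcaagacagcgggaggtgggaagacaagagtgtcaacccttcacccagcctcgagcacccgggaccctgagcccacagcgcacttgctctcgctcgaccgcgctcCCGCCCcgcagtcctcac
Pdk2, chr10:80483863-80484162, minus strand: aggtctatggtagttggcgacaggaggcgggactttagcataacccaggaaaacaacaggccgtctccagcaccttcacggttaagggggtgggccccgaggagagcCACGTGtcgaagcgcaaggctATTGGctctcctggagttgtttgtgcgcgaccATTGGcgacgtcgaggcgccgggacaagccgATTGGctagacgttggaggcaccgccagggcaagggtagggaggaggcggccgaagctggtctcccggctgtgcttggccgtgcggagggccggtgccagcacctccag
Pdk1, chr3:77113264-77113563, plus strand: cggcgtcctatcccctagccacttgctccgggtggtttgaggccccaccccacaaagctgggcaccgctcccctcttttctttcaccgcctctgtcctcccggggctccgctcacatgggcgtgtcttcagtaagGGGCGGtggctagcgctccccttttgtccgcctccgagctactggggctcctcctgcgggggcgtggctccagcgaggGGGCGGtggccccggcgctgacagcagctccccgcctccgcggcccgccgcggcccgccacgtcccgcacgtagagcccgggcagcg

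The Pdk4 promoter held a CCAAT box on the opposite strand at bases -153 to -149 from the start, a GC box at -95 to -90 and another, on the opposite strand, at 33 to 38. The Pdk2 promoter held 3 CCAAT boxes, all on the opposite strand and all within bases -122 to -55, and an E-box at -143 to -138. The Pdk1 promoter held GC boxes at -115 to -110 and -37 to -32. No capital run belongs to more than 1 motif. Of all 33469 promoters of this length, 37.5% held a CCAAT box, 33.1% a GC box and 6.42% an E-box. A FOXO core was in 3.78% of them, a nuclear receptor half-site in 16.2% and a TATA box in 14.2%, and none of these 3 motifs matched in the Pdk4, Pdk2 or Pdk1 window. Promoters were matched for 8 of the 10 members. Among those 8, a GC box was in 5, a CCAAT box in 4, a nuclear receptor half-site in 2 (Pdhb and Dlat), an E-box in 2 (Pdk2 and Pdhb), a FOXO core in 1 (Pdhb) and a TATA box in 1 (Dld). These are matches of exact letters, so other forms of each site were not searched, and binding was not measured here.

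Across the chip, the median raw signal per array lay between 91.1 and 139.6, and 51.2 to 59.6% of probes were detected above the negative controls. All 8 measured adipocyte markers were detected on every array. The array labelled food removed replicate 3 stood apart: the mean log2 signal of 14 epididymis markers was 11.68 there, with 13 of the 14 detected. It was 6.16 in food removed replicate 4, 5.90 in food removed replicate 5 and 5.84 in ad lib replicate 6, and 5.00 to 5.28 in the other 8 arrays. Of the 14 markers, 8 were detected in food removed replicate 4. Food removed replicate 5 and ad lib replicate 6 had 4 each, within the 2 to 6 of the other 8 arrays. The 4 arrays with a mean over 5.5 are called the arrays with epididymis markers below, a split by the mean and not by detection. Results that this split touches are given with and without these 4 arrays. Position on the chip nearly coincided with group, since the food removed arrays lay at positions 1 and 3 to 7 and the ad lib arrays at positions 2 and 8 to 12.

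Of the 9 members, 1 was significantly lower (Pdk4) and 1 significantly higher (Pdp2) in the arrays labelled food removed than in those labelled ad lib. By their labels, the direction of Pdk4 is opposite to the one the study gives for food removal. The same holds for the other genes with a value here that the study lists as increased, namely Hcar2 (listed under its older symbol Gpr109a), Angptl4, Per1, Pfkfb3, Pck1 and Net1. The groups are therefore called by their labels throughout, and whether the labels were exchanged was not tested. The other 7 did not pass the test, and 4 of the 9 had an unadjusted p under 0.05, as had 15.9% of all probes tested. Values are log2 signals after background correction and quantile normalization, and a gene was called when its adjusted p in limma's moderated test, with Benjamini-Hochberg adjustment over 12196 probes, was under 0.05. Over all these probes 2.47% were called, 1.42% as lower and 1.05% as higher, against 22.2% of the members. Pdk4 is a gene that the study itself lists, so its call is not independent evidence about the members, and without it 1 member remained called. The median log2 difference was 0.06 over the 9 members and -0.02 over all probes tested.

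**Figure D1:**
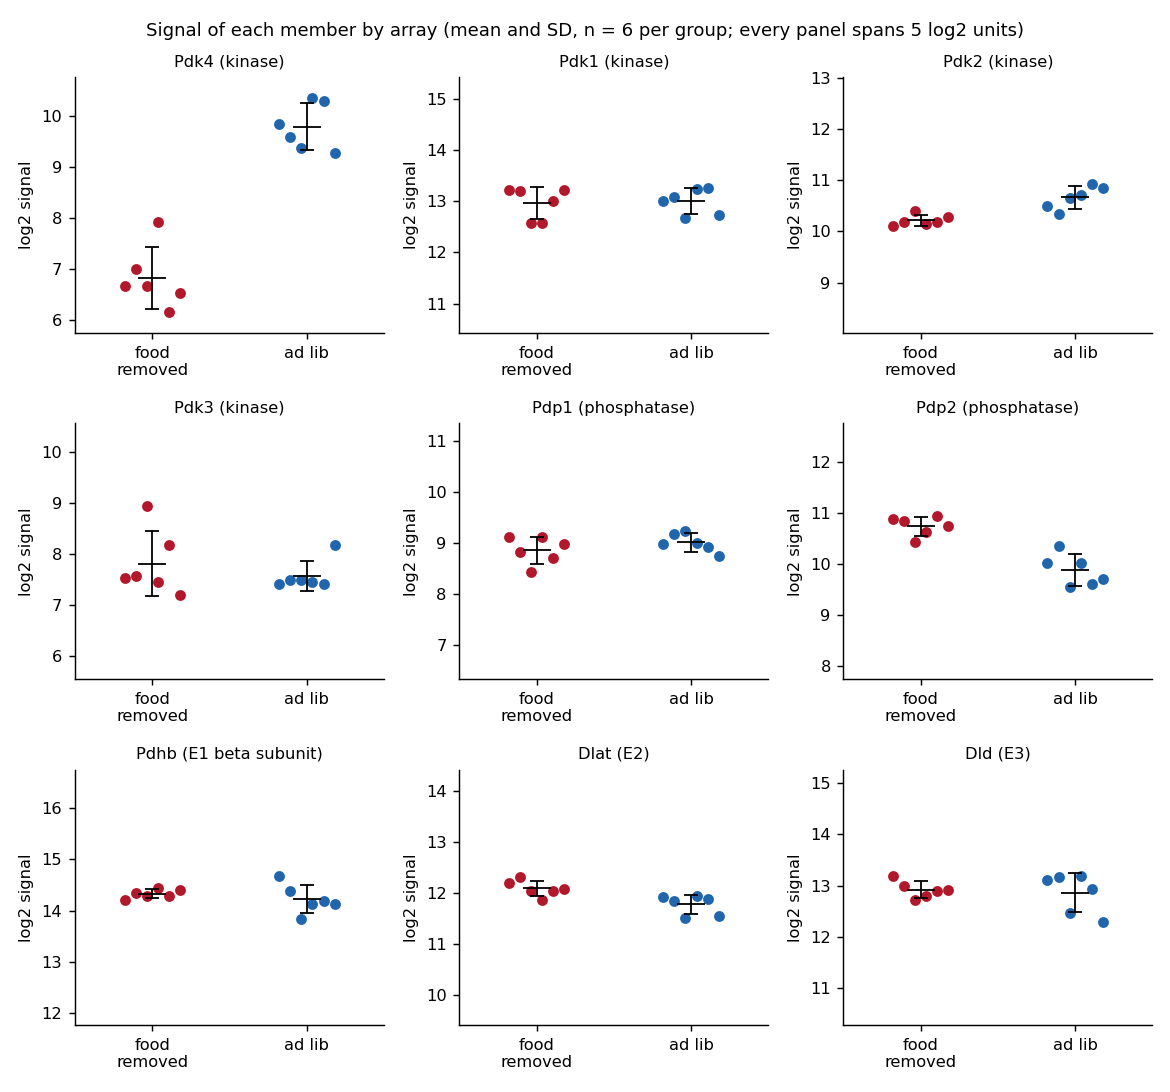
Log2 signal (vertical axis) of each of the 9 measured members in the 6 arrays labelled food removed (red) and the 6 labelled ad lib (blue). Points are arrays, bars give the mean and SD, and every panel spans 5 log2 units around its own gene. Only Pdk4 and Pdp2 have groups that do not overlap.

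Pdk4 is the kinase isoform best known for its response to starvation. Its log2 signal in the food removed arrays, replicates 1 to 6, was 6.68, 7.02, 6.67, 7.93, 6.17 and 6.54. In the ad lib arrays it was 9.85, 9.59, 9.36, 10.34, 10.29 and 9.27. Every food removed array lay below every ad lib array, and 1.34 log2 units separated the highest of the former (replicate 4) from the lowest of the latter (replicate 6). The mean was 6.83 ± 0.60 (SD, n = 6) against 9.78 ± 0.46 (SD, n = 6), a log2 difference of -2.95 (SE 0.27, 95% confidence interval -3.54 to -2.36, limma adjusted p = 0.000236). This made Pdk4 7.73-fold higher in the ad lib arrays, and no other of the 12196 probes had a larger difference in that direction.

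The difference was already visible in the raw signals. They lay between 137 and 478 in the food removed arrays and between 579 and 1590 in the ad lib arrays, without overlap, and the standard error over the beads of an array was at most 5.49% of the signal. Ad lib replicate 1, at position 2 between food removed arrays at positions 1 and 3, read 1502, against 167 and 178 in these neighbors. With position as a covariate the log2 difference was -3.00 (SE 0.36), and without the 4 arrays with epididymis markers it was -3.16 (SE 0.23).

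**Figure D2:**
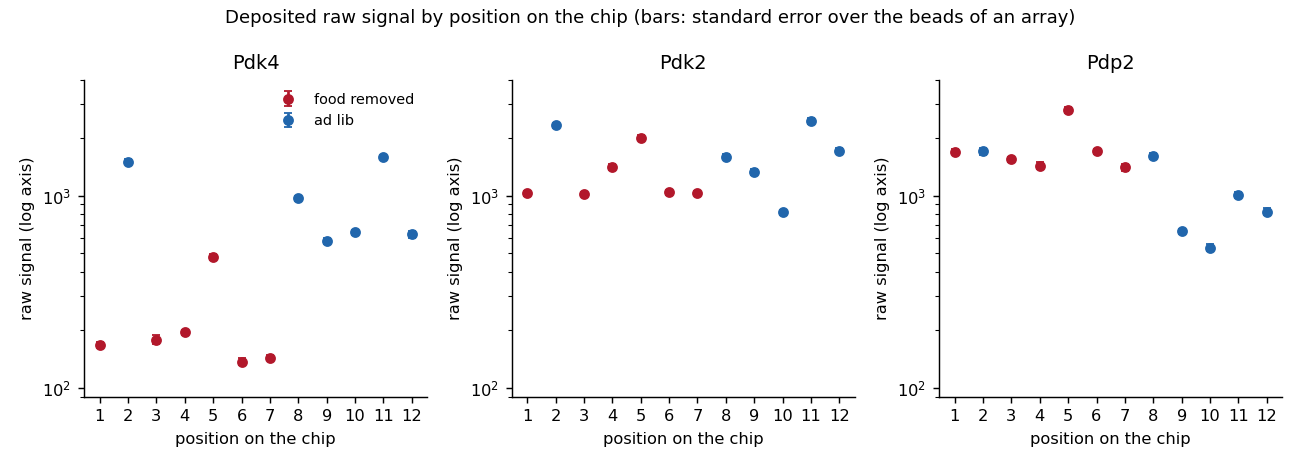
Deposited raw signal (log axis) of Pdk4, Pdk2 and Pdp2 against the position of the array on the chip, with food removed arrays in red and ad lib arrays in blue. Bars are the standard error over the beads of an array. Ad lib replicate 1, at position 2, reads 1502 for Pdk4 among food removed arrays that read 137 to 478.

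Endothelial markers moved with the same labels. The mean log2 signal of 6 measured endothelial genes was 8.48 to 9.58 in the food removed arrays and 9.53 to 9.97 in the ad lib arrays, a difference of -0.59, and 2 of the 6 (Cldn5 and Gpihbp1) were significantly lower in limma's test. Gpihbp1 itself is known to respond to feeding, and the study states that it was not on the chip, although the platform table names a probe for it. By PCR in a separate experiment, the study found that Gpihbp1 mRNA rose after food withdrawal. Here its log2 difference was -0.77 (limma adjusted p = 0.0440), the opposite direction by the labels. Without Gpihbp1 the mean of the other 5 genes was 8.23 to 9.31 and 9.15 to 9.80, a difference of -0.56, with 1 of the 5 lower. The part of endothelial RNA in the Pdk4 result was not tested. The mean of 8 adipocyte markers overlapped between groups, at 11.94 to 12.70 and 12.29 to 12.89. Of these 8, Lep, the gene for leptin, was higher in the food removed arrays (log2 difference 1.55, limma adjusted p = 0.0255).

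Pdk2, the kinase isoform present in most tissues, pointed the same way with a smaller difference that missed the threshold. Its log2 signals in the food removed arrays, in replicate order, were 10.10, 10.19, 10.40, 10.15, 10.18 and 10.27. In the ad lib arrays they were 10.49, 10.35, 10.64, 10.72, 10.93 and 10.85. All 6 food removed arrays lay below the ad lib mean, and the groups overlapped through 1 pair, food removed replicate 3 and ad lib replicate 2. The log2 difference was -0.45 (SE 0.11, 95% confidence interval -0.69 to -0.20), with a limma adjusted p of 0.0579. Leaving out food removed replicate 3 gave -0.49 (adjusted p = 0.0462) and leaving out ad lib replicate 2 gave -0.51 (adjusted p = 0.0295). Of the 12 arrays left out in turn, only these 2 took Pdk2 past the threshold, and for the others the adjusted p reached 0.142. With chip position as a covariate the difference was -0.29 (adjusted p = 0.586). Without the 4 arrays with epididymis markers it was -0.44 (adjusted p = 0.174).

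Pdk1, a kinase known as a target of hypoxia-inducible factor, had almost the same signal in both groups. It ranged from 12.57 to 13.22 (median 13.10) in the food removed arrays and from 12.68 to 13.25 (median 13.05) in the ad lib arrays. The log2 difference was -0.03 (SE 0.16), with a 95% confidence interval of -0.38 to 0.31. The sign turned when any of 4 single arrays was left out.

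Pdk3, a further isoform of the family, was uneven within groups. Its log2 signals in the food removed arrays, in replicate order, were 7.52, 7.57, 8.93, 7.46, 8.18 and 7.20. In the ad lib arrays they were 7.42, 7.49, 7.49, 7.45, 7.41 and 8.18. Food removed replicates 3 and 5 and ad lib replicate 6 were high, and the remaining 9 arrays lay between 7.20 and 7.57. The group difference was 0.24 (SE 0.26, 95% confidence interval -0.31 to 0.79, limma adjusted p = 0.714).

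The 3 arrays with high Pdk3 were also those with a high signal of Ces5a, a carboxylesterase of the epididymis. Ces5a read 12.54, 9.96 and 9.66 in these arrays and 4.37 to 4.99 in the other 9. Ces5a was singled out from the epididymis list after its values were seen. Lcn5, of the same list, was also high in these arrays, at 14.49, 11.17 and 11.15, whereas Gpx5 was high in food removed replicate 3 (15.01) and not in food removed replicate 5 (4.75) or ad lib replicate 6 (4.85). Some markers of other tissues stood out in the same arrays. The sperm gene Tnp1 was at 9.95, 7.16 and 7.47 and the muscle actin Acta1 at 10.34, 8.42 and 8.70. In the other 9 arrays Tnp1 was at most 5.59 and Acta1 at most 5.73. Other genes of these lists were mixed. The sperm gene Prm1 was also high there (8.18, 5.37 and 6.11), but Prm2 was not (6.09, 6.18 and 6.03). The muscle genes Tnnt3 (6.09) and Mb (4.62) had their lowest value of all arrays in food removed replicate 3. Food removed replicate 4, where other epididymis genes such as Gpx5 (8.27) and Lcn5 (8.96) were raised but Ces5a was not, had a Pdk3 signal of 7.46. Without the 4 arrays with epididymis markers the Pdk3 difference was -0.02 (SE 0.13). The part of other tissue in the Pdk3 signal was not tested.

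**Figure D3:**
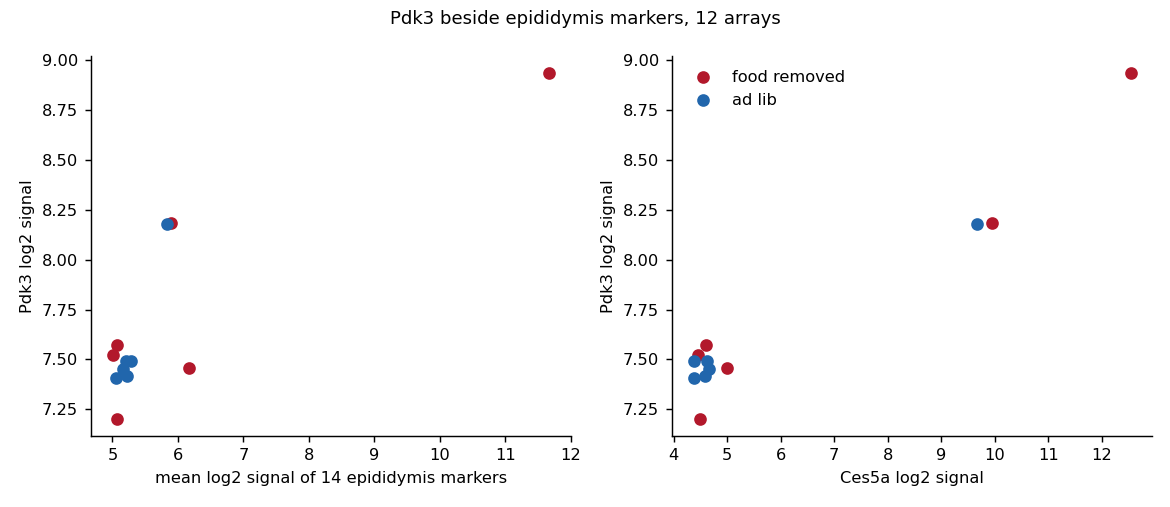
Pdk3 log2 signal (vertical axes) against the mean log2 signal of 14 epididymis markers (left) and against the log2 signal of Ces5a (right) in 12 arrays, food removed in red and ad lib in blue. The 3 arrays with Ces5a at 9.66 or more have Pdk3 at 8.18 or more, and the other 9 have Pdk3 at 7.20 to 7.57.

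The change of Pdk4 was set against that of each other kinase by taking, on every array, the Pdk4 signal minus that of the other gene. This per-array difference shifted between groups by -2.92 for Pdk1, -2.50 for Pdk2 and -3.19 for Pdk3. In each of the 3 comparisons the two-sided exact permutation p was 0.00216, which is also its value after Benjamini-Hochberg adjustment and the smallest that 6 arrays against 6 allow. By this test each of the other isoforms differed from Pdk4 in its change between the labelled groups. The outcome followed largely from the Pdk4 difference given above. Pdk4 is a gene that the study lists from these arrays, so the test is not independent evidence that it stands apart.

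Pdp2 is a catalytic subunit of the phosphatase that reactivates E1. Its log2 signals in the food removed arrays, in replicate order, were 10.88, 10.83, 10.44, 10.62, 10.94 and 10.74. In the ad lib arrays they were 10.03, 10.36, 9.56, 10.03, 9.61 and 9.71. All food removed arrays lay above all ad lib arrays, although the gap was only 0.08, between food removed replicate 3 and ad lib replicate 2. Over all tested probes, 2.5% had groups that did not overlap, 1.43% with food removed lower and 1.07% with food removed higher. The mean of Pdp2 was 10.74 ± 0.19 (SD, n = 6) against 9.88 ± 0.31 (SD, n = 6), a log2 difference of 0.86 (SE 0.15, 95% confidence interval 0.54 to 1.17, limma adjusted p = 0.00727), or 1.81-fold higher in the food removed arrays.

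The raw Pdp2 signals overlapped, unlike those of Pdk4. They lay between 1400 and 2787 in the food removed arrays and between 537 and 1697 in the ad lib arrays, so that the separation appeared after normalization. Ad lib replicate 1, at position 2, had a raw signal of 1697, no lower than the 1694 and 1543 of the food removed arrays at positions 1 and 3. Its normalized signal was 10.03, against 10.88 and 10.83 in these neighbors. With chip position as a covariate the difference was 0.73 (adjusted p = 0.198), and with arrays aligned on their medians only it was 0.83 (adjusted p = 0.0890). The call passed with each of the 12 arrays left out in turn and, at 0.90 (adjusted p = 0.0278), without the 4 arrays with epididymis markers.

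Pdp1, the calcium-stimulated catalytic subunit of the same phosphatase, did not pass. It ranged from 8.44 to 9.11 (median 8.90) in the food removed arrays and from 8.75 to 9.24 (median 8.99) in the ad lib arrays, and the ranges overlapped, with 2 food removed arrays (replicates 3 and 5) below every ad lib array. The log2 difference was -0.15 (SE 0.13, 95% confidence interval -0.44 to 0.14, limma adjusted p = 0.648). The lowest value of each group fell in food removed replicate 3 (8.44) and ad lib replicate 6 (8.75), both among the arrays with high Pdk3.

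None of the 3 measured subunits of the complex itself passed the test. Dlat, the E2 core that carries the lipoyl groups, came nearest. Its log2 signals in the food removed arrays, in replicate order, were 12.21, 12.31, 12.04, 11.87, 12.04 and 12.09. In the ad lib arrays they were 11.92, 11.84, 11.52, 11.95, 11.89 and 11.54. Of the food removed arrays, 5 lay above every ad lib array, and replicate 4 lay within the ad lib range. The log2 difference was 0.31 (SE 0.12, 95% confidence interval 0.07 to 0.56), with an adjusted p of 0.186 in limma.

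Pdhb, the beta subunit of E1, ranged from 14.20 to 14.44 (median 14.32) in the food removed arrays and from 13.84 to 14.67 (median 14.16) in the ad lib arrays. The log2 difference was 0.11 (SE 0.13, 95% confidence interval -0.17 to 0.38), and the food removed range lay inside the ad lib range. Dld, the E3 component that the complex shares with the other 2-oxo acid dehydrogenases, ranged from 12.72 to 13.19 (median 12.90) and from 12.29 to 13.19 (median 13.02), with a log2 difference of 0.06 (SE 0.16, 95% confidence interval -0.29 to 0.41). Both intervals included 0 and ended below the difference measured for Pdp2.

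**Figure D4:**
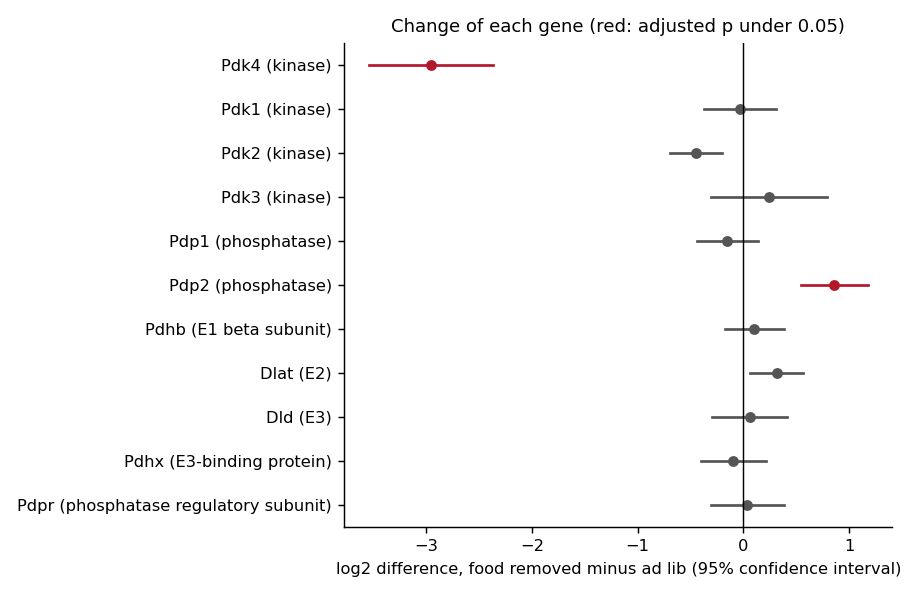
Log2 difference between arrays labelled food removed and ad lib (horizontal axis, food removed minus ad lib) with its 95% confidence interval, for the 9 members and for Pdhx and Pdpr. Red marks an adjusted p under 0.05, reached by Pdk4 at -2.95 and Pdp2 at 0.86, while the intervals of Pdk2, at -0.45, and Dlat, at 0.31, lie off 0 without passing the adjusted threshold.

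Of the other genes of the complex, Pdhx, the protein that binds E3 to the core, had a log2 difference of -0.09 (SE 0.14), and Pdpr, the regulatory subunit of the phosphatase, one of 0.04 (SE 0.16). Neither passed, and the groups overlapped for both. Pdha2, the E1 alpha subunit of the testis, was detected on 1 array, food removed replicate 3, and was not tested.

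Within groups, some members varied together from array to array. For this the group mean of each gene was removed and the correlation taken over 12 arrays, for all 36 pairs of members, with p-values from 100000 permutations of arrays within groups. Dlat and Dld had a Pearson r of 0.86 (permutation p = 0.00458, adjusted p = 0.0412) and a Spearman rho of 0.85 (permutation p = 0.00268, adjusted p = 0.0965). Leaving out the 2 arrays farthest from the median of Dlat, ad lib replicates 3 and 6, gave an r of 0.73. The pair moved together in both groups, with an r of 0.70 in the food removed arrays and 0.95 in the ad lib arrays.

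Pdk1 followed these subunits. Its Pearson r was 0.83 with Dlat (permutation p = 0.00141, adjusted p = 0.0412) and 0.74 with Dld (permutation p = 0.00294, adjusted p = 0.0412). The Spearman rho was 0.59 with Dlat (permutation p = 0.0494, adjusted p = 0.263) and 0.61 with Dld (permutation p = 0.0274, adjusted p = 0.263). Without food removed replicates 3 and 4, the arrays farthest from the median of Pdk1, r was 0.86 and 0.79. Without the 4 arrays with epididymis markers it was 0.80 with Dlat and 0.66 with Dld. Thus the relation passed by Pearson's and not by Spearman's measure, for both subunits.

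Pdk3 and Pdp1 ran in opposite directions, with a Pearson r of -0.83 (permutation p = 0.00386, adjusted p = 0.0412) and a Spearman rho of -0.64 (permutation p = 0.0464, adjusted p = 0.263). Without food removed replicate 3 and ad lib replicate 6 the r was -0.51. Over the 8 arrays without epididymis markers it was -0.11. Those 8 arrays hold none with high Pdk3, and their Pdk3 signal spans only 7.20 to 7.57. The lower r there cannot separate the epididymis markers from the loss of this spread. Whether the relation depended on those markers was therefore not tested. Pdk2 and Pdp2 had an r of -0.78 (permutation p = 0.0117, adjusted p = 0.0844), which did not pass the adjustment. No pair passed by Spearman's measure, and none with Pdk4 passed by either. Pairs of other genes were not tested, so the share of all pairs that vary together is not given.

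The genes whose signal was most like that of Pdk4 were ranked among 8779 tested probes with a single gene symbol, as a description with no test. Over the 12 arrays, where the groups form separate clusters and r follows the difference between them, the 5 highest were Gabbr1 (r = 0.98), Samd4a (0.96), Hcar2 (0.96), Zc3h14 (0.95) and Zfp655 (0.95). All of them were lower in the food removed arrays. The log2 difference was -1.97 for Gabbr1, a GABA-B receptor subunit, and -2.67 for Hcar2, the receptor through which ketone bodies and niacin restrain lipolysis. With group means removed, the 5 highest were Sucla2 (0.90), Pde1b (0.89), Trmt11 (0.89), Zfp386 (0.87) and Ywhab (0.86). No gene was on both lists.

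Of 15 tested genes that make, move or otherwise use pyruvate, 1 was lower, 0 were higher and 14 did not pass, with a median log2 difference of -0.05. At an unadjusted p under 0.05, 1 was lower and 2 were higher, and the methods' t-test after adjustment called the same number lower, 1, and 0 higher. Over all probes tested, 15.9% had an unadjusted p under 0.05 and 2.47% were called in limma. The counts of this list and of the lists below stand beside these shares. The gene that passed was Pck1, the cytosolic phosphoenolpyruvate carboxykinase, which in fat supplies glycerol phosphate for re-esterification of fatty acids. Its log2 signal was 11.50 to 14.34 in the food removed arrays and 14.46 to 14.70 in the ad lib arrays, without overlap, and the difference was -1.85 (SE 0.34, limma adjusted p = 0.0102). The monocarboxylate transporters Slc16a1, at 0.44 (adjusted p = 0.108 in limma), and Slc16a3, at 0.82 (adjusted p = 0.282 in limma), did not pass.

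Of 12 tested genes of the citric acid cycle, 0 passed in either direction, and their median was -0.12. The 3 with the smallest p were Idh3g (-0.31, adjusted p = 0.130 in limma), Suclg1 (-0.21) and Sucla2 (-0.20), which encode subunits of isocitrate dehydrogenase and succinyl-CoA ligase. Groups did not overlap for Idh3g, at 11.71 to 12.16 in the food removed and 12.27 to 12.45 in the ad lib arrays. The same held for Suclg1, at 12.53 to 12.82 and 12.84 to 13.06. Over all probes tested, 2.5% had groups without overlap. At an unadjusted p under 0.05, 2 of the 12 were lower and 0 higher, near the 15.9% of all probes tested. The methods' t-test called 0 after adjustment. The list for the use of acetyl-CoA also holds genes that make it. Of its 8 tested genes, 0 passed in limma or in the methods' t-test, 2 were higher at an unadjusted p under 0.05, and the median was 0.13. Here Acat2 (0.56), Acly, the ATP citrate lyase that makes cytosolic acetyl-CoA (0.39), and Acat1 (-0.13) had the smallest p.

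The related 2-oxo acid dehydrogenases behaved likewise, with 0 of 8 tested genes passing in limma or in the methods' t-test, 1 lower at an unadjusted p under 0.05, and a median of -0.10. Bckdhb, the E1 beta subunit for branched-chain keto acids, had no overlap between groups, with 11.86 to 12.48 in the food removed arrays and 12.56 to 13.11 in the ad lib arrays, but its difference of -0.46 (SE 0.13) had an adjusted p of 0.0862 in limma. Bckdha, the alpha subunit, was at -0.22 and Bckdk, the kinase of that complex, at 0.41. Of 3 tested genes for the lipoate and thiamine cofactors, Lipt2 (0.23), Slc19a2 (0.32) and Lipt1 (-0.17), 0 passed in limma, 0 in the methods' t-test and 0 at an unadjusted p under 0.05, with a median of 0.23.

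Among 15 tested nuclear receptors and signaling genes known to act on Pdk4 transcription, 1 was lower, 0 were higher and the median was -0.14. The methods' t-test gave the same numbers, and at an unadjusted p under 0.05 there were 1 lower and 1 higher. This was Rxrg, a retinoid X receptor, the partner with which PPARs bind DNA. It was at 10.20 to 11.76 in the food removed arrays and 12.20 to 12.99 in the ad lib arrays, without overlap, a difference of -1.54 (SE 0.22, limma adjusted p = 0.00278). Akt1, a kinase of the insulin pathway, was at 0.42 and Thra, a thyroid hormone receptor, at 0.23, and neither passed.

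The list of PPAR and FOXO targets that textbooks place beside Pdk4 in fasting had 14 tested genes, of which 6 were lower, 0 were higher and 8 did not pass. The methods' t-test called 5 lower and 0 higher, and at an unadjusted p under 0.05 there were 8 lower and 0 higher. Its median was -0.46, against -0.02 over all probes. The list includes genes that the study names from these arrays, so its count is not independent evidence of its direction. Hcar2 differed by -2.67 (SE 0.32, limma adjusted p = 0.000924) and Angptl4, the inhibitor of lipoprotein lipase, by -2.08 (SE 0.27, limma adjusted p = 0.00111). A dimmer Angptl4 probe, with means of 5.27 in the food removed and 5.94 in the ad lib arrays, differed by -0.67 (limma adjusted p = 0.0163). Txnip, an arrestin-like protein that restrains glucose uptake, differed by -0.59 (SE 0.10, limma adjusted p = 0.00634). The other 3 that were lower were Slc25a20 (-0.82) and Ech1 (-0.63), of mitochondrial fatty acid oxidation, and the fatty acid-binding protein Fabp3 (-1.23).

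**Figure D5:**
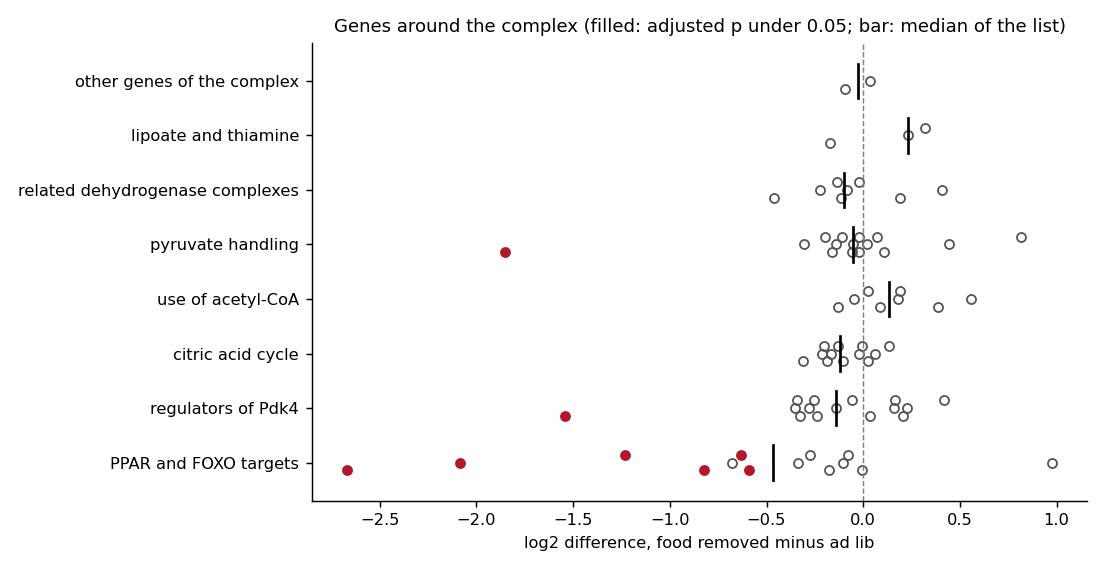
Log2 difference between arrays labelled food removed and ad lib (horizontal axis, food removed minus ad lib) of each tested gene in 8 lists around the complex. Filled points passed an adjusted p of 0.05 and bars mark each list's median. The 8 filled points all lie below 0: Pck1 at -1.85, Rxrg at -1.54 and 6 PPAR and FOXO targets between -2.67 and -0.59.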

How the data were processed

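Total RNA of epididymal fat from 12 rats was hybridized to the 12 arrays of 1 Illumina RatRef-12 chip. The authors deposited a raw signal intensity per probe, not normalized, with its detection p-value, the bead standard error of that signal and the count of beads. They also deposited normalized intensities, which were used as an alternative and hold values below 0 for dim probes. The paper names Illumina's Beadstudio with cubic spline normalization, while GenomeStudio, of a version not given in the sources used here, appears in the submitters' processing notes. Groups came from the sample labels. The normalized table is linear. Each array has the same median there, 23.3, and ranks its probes as the raw signals do. Its centring is not given in the sources used here.

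Raw signals were background-corrected, quantile-normalized and log2-transformed with neqc (offset 16) in limma 3.58.1, under R 4.3.3. The 12196 probes detected (p under 0.05) on 6 or more arrays were fitted with lmFit and eBayes without covariates, two-sided, with Benjamini-Hochberg adjustment. The scripts were tested on simulated data. Symbols came from the platform table, in which 13793 of 22523 probes have 1 symbol. For genes with several probes the brightest was used. No probe's level was set against another's. Motifs were searched with Python 3.11.15 in RefSeq promoters (GRCr8).

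The members and gene lists were chosen with earlier results of these data known. Named genes were all members, the 3 genes of smallest p in each list, genes that passed in a list, and the 5 most like Pdk4 by each measure. The labels number the samples, and the study gives 6 rats per group with no mention of pooling. The number of arrays limits the precision, with 30 to 62 beads behind each member's value and bead standard errors of 2.43 to 6.04% of the signal. Alternatives covered background correction, normalization, offset, filters, moderation, array weights, the methods' t-test, replicate number, chip position and leaving out arrays.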

Additional observations from a re-analysis of the deposited data

Results flagged for a closer look

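The Pdk3 signal of ad lib replicate 6 stood apart from its group, at 8.18 on the log2 scale against 7.41 to 7.49 in the other 5 ad lib arrays, a gap of 0.89 of the group's whole range. Dixon's criterion for a lone value was passed. It was applied to 18 groups of 6 arrays, and chance passes about 1 in 20 such groups. The same array had a Ces5a signal of 9.66, against 4.37 to 4.66 in the other ad lib arrays.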

How the results depend on the processing

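Pdk4 stayed lower and past the threshold in all 24 alternatives (log2 difference -3.16 to -2.33, highest adjusted p 0.00607, from the methods' t-test), and from -3.14 to -2.83 with 1 array left out. Pdp2 stayed past it in 22 of 24, with 0.79 to 0.95 when 1 array was left out, and missed it with a median shift (0.83) and with chip position as a covariate (0.73). Pdk2 passed it in 7 of 24, namely no background correction (-0.43), an offset of 50 (-0.44), array weights (-0.45), a robust eBayes with a trend (-0.45), a filter on detection in all arrays (-0.45) and without food removed replicate 3 or ad lib replicate 2 (-0.51 to -0.39 over the 12 arrays left out in turn). The members called numbered 1 with a median shift, 1 with chip position, 1 without Pdk4 and 2 to 3 with 1 array left out. The probes called numbered 301, against 103 with a median shift, 840 with array weights, 178 with the replicate block, 32 with chip position and 157 to 488 with 1 array left out. The last range moved by over 1.5 times without food removed replicate 1 (185), 2 (181), 4 (488), 5 (187) or 6 (186), or without ad lib replicate 5 (157). Replicate numbers did not pair the samples (correlations of deviations from -0.41 to 0.13, with 0 of 6 samples closest to their own number). With the replicate block Pdk4 stayed at -2.95 and Pdp2 at 0.86, and both calls were kept.

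Differences that passed in no setting changed sign as follows. Pdk1 was 0.051 with array weights, 0.16 without the 4 arrays with epididymis markers, and from -0.098 to 0.046 with 1 array left out. Pdhb was -0.00045 with array weights and -0.050 with chip position. Dld was -0.16 with chip position and from -0.052 to 0.13 with 1 array left out. Pdk3 was -0.022 without the 4 arrays. Pdk4's change minus that of each other kinase kept its sign and its side of the threshold in all 17 alternatives. Leaving out the 4 arrays, Pdk4 or Gpihbp1 was chosen after seeing the data. The cause of these shifts was not tested.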
